A study of Homo sapiens with 84 samples.

Results

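The cytoplasmic ribosomal protein genes encode the protein part of the ribosome that translates nuclear messages. They were chosen by symbol alone, as the protein-coding genes named RPL or RPS with a number, with or without the endings A, X or L, together with RPLP0, RPLP1, RPLP2 and RPSA. The rule found 76 genes of the 24455 that had a symbol and at least 1 ATAC-seq peak within 10 kb of the transcription start site (TSS). Of these, 49 belong to the large subunit and 27 to the small subunit. Among them are 7 paralogs, the related copies RPL3L, RPL7L1, RPL10L, RPL22L1, RPL26L1, RPL39L and RPS27L. The 76 genes held 310 peaks, and all 76 passed the filter on low counts.

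The measurements were ATAC-seq, an assay in which a transposase marks accessible DNA by inserting sequencing adapters into it. They cover 9 lines grown from triple-negative breast cancer, a breast cancer without the hormone receptors and HER2 amplification that are used as drug targets. The combination of tazemetostat and ipatasertib and the DMSO control were given to all 9 lines. Tazemetostat alone and ipatasertib alone were also given to 4 of them, MDA-MB-231, MDA-MB-468, SUM-149PT and SUM-159PT. The 5 lines with the combination and DMSO only were HCC1143, HCC1395, HCC1937, BT-20 and BT-549. Tazemetostat inhibits EZH2, the enzyme of the Polycomb repressive complex PRC2 that methylates histone H3. Ipatasertib inhibits the AKT kinases. Each agent was used at 5 uM in medium with 2% serum, with tazemetostat starting on day -5 and ipatasertib on day 0 for 24 hours, as described for MDA-MB-468 and taken here for the other lines. The agents therefore differ in length of exposure, and each line is a single culture line and not a patient.

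Ribosomal protein messages are among the most abundant of growing cells, and their genes are active in nearly every cell type. Most of their transcripts begin with a 5′ terminal oligopyrimidine (TOP) tract, a C followed by a run of C and T, through which mTORC1, a kinase complex downstream of AKT, controls their translation. Their promoters are compact, often without a TATA box, and bound by ETS-family factors such as GABP, by SP1 and by MYC. EZH2 is best known for the silencing of developmental genes and not for these genes.

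The start sites of members that the results turn on are shown here to give the sequence class of the promoters. Each line is 30 bases of GRCh38.p14 from RefSeq on the coding strand, 15 before and 15 from the start. The capitals mark the unbroken pyrimidine run from the start, or the start base alone where there is no TOP-like start. The first 8 have such a start and the last 3, all paralogs, do not.
RPS21 (chr20:62387088-62387117, plus strand): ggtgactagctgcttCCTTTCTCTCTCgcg
RPL12 (chr9:127451392-127451421, minus strand): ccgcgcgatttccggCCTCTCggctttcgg
RPLP0 (chr12:120201097-120201126, minus strand): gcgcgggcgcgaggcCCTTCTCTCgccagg
RPLP2 (chr11:809952-809981, plus strand): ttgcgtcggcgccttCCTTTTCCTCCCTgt
RPL28 (chr19:55385917-55385946, plus strand): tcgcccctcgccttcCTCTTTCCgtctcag
RPL36A (chrX:101390996-101391025, plus strand): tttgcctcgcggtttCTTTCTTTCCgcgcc
RPL38 (chr17:74203663-74203692, plus strand): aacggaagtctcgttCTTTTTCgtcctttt
RPL22L1 (chr3:170870181-170870210, minus strand): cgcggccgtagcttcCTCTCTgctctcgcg
RPL10L (chr14:46651767-46651796, minus strand): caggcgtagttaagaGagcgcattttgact
RPL7L1 (chr6:42879601-42879630, plus strand): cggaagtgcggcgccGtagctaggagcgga
RPS27L (chr15:63157463-63157492, minus strand): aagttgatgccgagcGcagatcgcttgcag

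RefSeq promoter sequences were matched for 61 of the 76 members. A start with C and at least 4 further pyrimidines was found in 41 of the 61 (67.2%), against 5.14% of all 27305 symbols with an entry. In the 300 bases around the start, on either strand, CGGAAG, the core of ETS sites, was found in 62.3% of the members, against 22.6% of all symbols. The GC box GGGCGG was found in 59.0% against 48.3%. TATAAA was found in 9.84% against 14%, and the E-box CACGTG in 8.2% against 8.77%. These are letter matches, not binding sites.

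The 78 libraries held 12292571 to 21459284 counts in peaks, with 3 replicates in each of 26 groups. Replicates differed by less than sampling noise in 70 of 78 pairs, and the 3 were summed and counted as 1 sample of a line and treatment. HCC1395 DMSO replicate 3 stood apart, with variance ratios to replicates 1 and 2 of 1.88 and 1.99, against 0.735 between those 2. Without it 40 members fell and 3 rose with the combination, against 40 and 2 with it. P-values across lines therefore measure the spread between lines. Levels are CPM, the counts of these sums scaled to library size by TMM, and a log2 fold is treated over DMSO unless another pair is named. A gene was called fallen or risen where the edgeR quasi-likelihood p, adjusted by Benjamini-Hochberg over all genes tested, was below 0.05. The 8 breast and tumour cell markers, all measured, summed to 163 to 359 CPM with the combination and 168 to 401 CPM with DMSO. Of 12 immune and endothelial markers, 10 had a peak; PTPRC, the pan-leukocyte marker CD45, was among those with none. Those 10 summed to 129 to 185 CPM with the combination and 132 to 177 CPM with DMSO; the part of other cells in the results was not tested.

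The peaks of a member are those that the deposited table assigns to it, and 59 members had a peak over the TSS of that table. The other 17 are seen through other peaks. For RPL28 the peak over the RefSeq start carried the symbol TMEM238, for RPL13 SNORD68, for RPL3 SNORD43 and for RPL36A BTK. It carried RPL34-DT for RPL34, RPL37A-DT for RPL37A, PIDD1 for RPLP2 and ZWILCH for RPL4. For RPL17 it was SNORD58B and for RPL26 KRBA2. Among the highest levels per kb of peak under DMSO were RPL23A with 17.2 CPM per kb, RPL15 with 16.7 and RPS27 with 15. The level was lowest at RPL10L with 0.681 CPM per kb, RPL17 with 0.886, RPL34 with 1.29 and RPL37A with 1.38. Of these 4, only RPL10L had a peak over the TSS.

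With the combination, accessibility at the ribosomal protein genes was slightly lower across the 9 lines, in both subunits. Of the 76 members 40 fell and 2 rose, and 34 did not pass. The count depended on the window. With peaks within 1 kb, which 61 members had, 19 fell and none rose, and no share of all genes is given there. With any peak over the RefSeq TSS 18 of 61 fell and none rose, against 16.7% of 19140 genes that fell. Of all 23435 genes tested within 10 kb 16.7% fell and 11% rose. The members' log2 folds ran from -0.75 to 0.33 with a median of -0.12, against a median of -0.013 over all genes, and 72 of the 76 were below 0. In the large subunit 23 of 49 fell and 2 rose. In the small subunit 17 of 27 fell and none rose. The ranges of the 9 lines overlapped between combination and DMSO for every member, as they did for all 23435 genes (0 of them lacked overlap). Lower CPM in every line were found for 23 members, of which 20 had fallen. Counts of lines use CPM scaled over all 26 groups, and fits within a line can differ in sign.

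**Figure D1:**
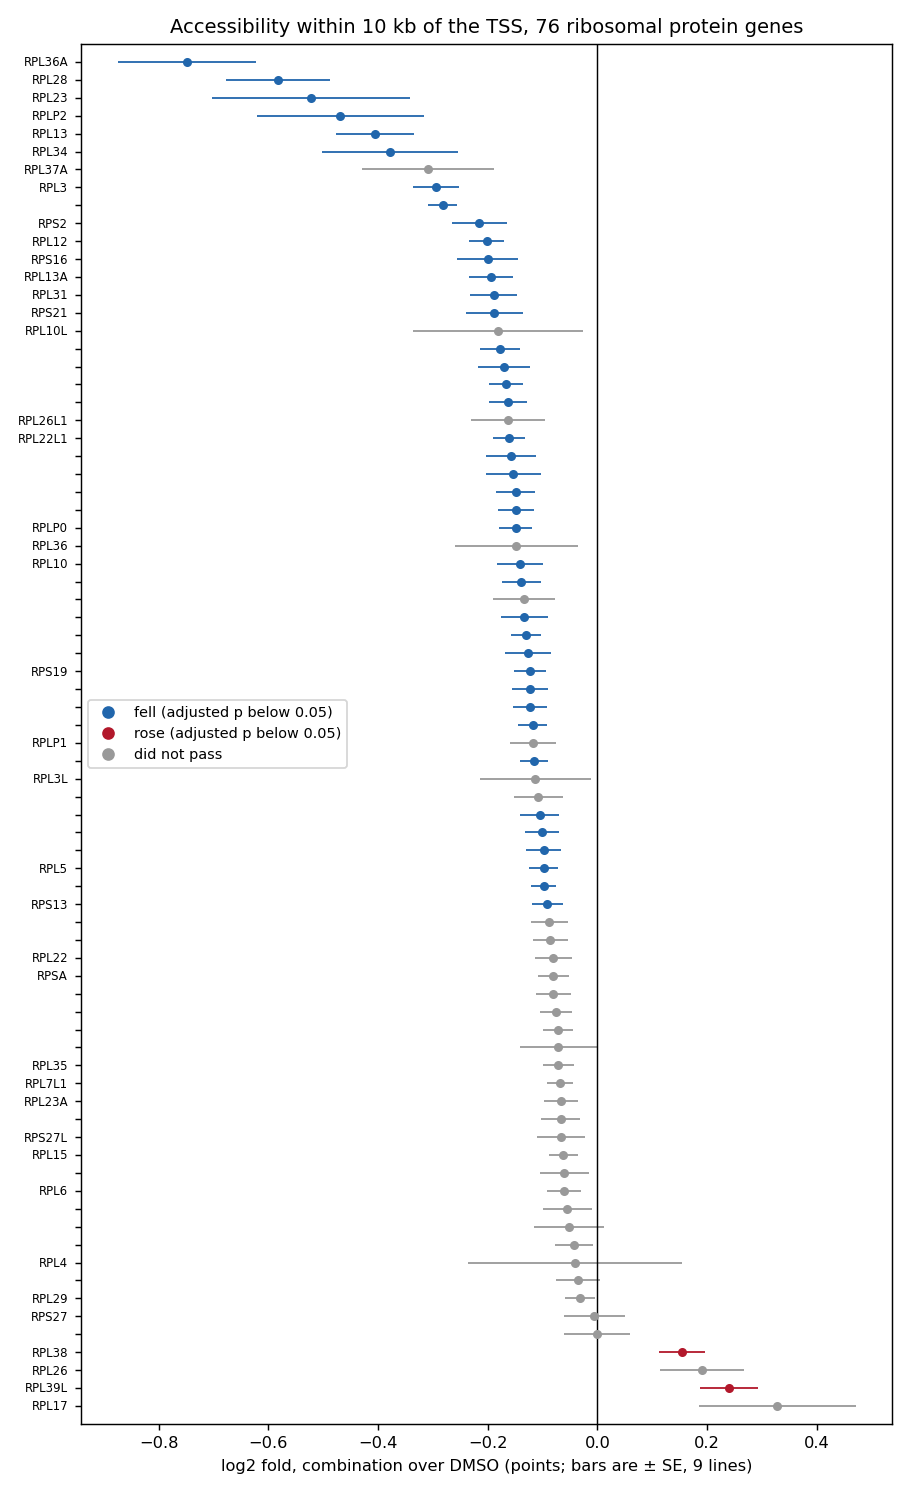
Log2 fold of accessibility within 10 kb of the TSS, combination over DMSO, for each of the 76 members (points) with its SE (bars) over 9 lines. Colours mark the 40 members that fell, the 2 that rose and the 34 that did not pass; nearly all points lie below 0, and only genes that the text names are labelled.

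The largest falls were in the large subunit, and 8 of the 10 lowest folds belonged to genes with no peak of their own over the TSS. RPL36A, a protein near the exit site of the ribosome, had 0.427 CPM at the lowest line, 1.04 at the median and 1.57 at the highest with the combination, against 0.788, 1.47 and 2.94 CPM with DMSO. It was lower in 9 of 9 lines (log2 fold -0.75 ± 0.126 SE, adjusted p = 0.00415). The peak over its RefSeq start, which is assigned to BTK, did not fall (log2 fold 0.0020, adjusted p = 0.977). RPL28 had a lowest, median and highest level of 3.34, 8.5 and 11.1 CPM with the combination and 6.76, 11.6 and 16.6 CPM with DMSO. It was lower in every line, by -0.58 ± 0.0952 (adjusted p = 0.0039). RPL13 had 6.4, 13.2 and 30.5 CPM with the combination, against 7.5, 15.7 and 38.9 CPM with DMSO, a log2 fold of -0.41 ± 0.0711 (adjusted p = 0.00475). MDA-MB-468 was the highest line for RPL13 under both. RPL3, which lines the peptidyl transferase centre, had 5.87, 10.7 and 17.2 CPM with the combination, against 7.21, 14.5 and 20 CPM with DMSO. RPL3 was lower in every line, by -0.29 ± 0.0417 (adjusted p = 0.00331), but over its RefSeq start the fold was -0.026 (adjusted p = 0.502).

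RPL23, RPL34 and RPL37A were measured at low levels. RPL23, which can bind the p53 regulator MDM2, had 0.0941, 0.522 and 0.901 CPM with the combination, against 0.332, 0.622 and 1.28 CPM with DMSO (log2 fold -0.52 ± 0.18, adjusted p = 0.0494). RPL34 had 0.8, 1.56 and 2.66 CPM with the combination, against 1.01, 2.23 and 3.54 CPM with DMSO (-0.38 ± 0.124, adjusted p = 0.0424). Both were lower in 8 of 9 lines, and both calls sit at the threshold. RPL23 no longer passed without BT-20, BT-549, HCC1143, HCC1937, MDA-MB-231, MDA-MB-468, SUM-149PT or SUM-159PT (adjusted p 0.061 to 0.102). RPL34 no longer passed without BT-20, HCC1143, HCC1395, HCC1937, MDA-MB-231, SUM-149PT or SUM-159PT (adjusted p 0.0563 to 0.0916), and over its RefSeq start its fold was -0.027. RPL37A had 1.67, 3.33 and 7.74 CPM with the combination and 2.54, 4.74 and 6.61 CPM with DMSO, a log2 fold of -0.31 ± 0.121 that did not pass (adjusted p = 0.0751). The other 14 large-subunit members that fell ran from -0.20 at RPL12 to -0.10 at RPL5, a 5S particle protein that also binds MDM2.

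The stalk is the arm of the large subunit that recruits translation factors. Its base protein RPLP0 had 15.1, 20.4 and 27.2 CPM with the combination, against 16.2, 22.5 and 28.7 CPM with DMSO. RPLP0 was lower in every line, by -0.15 ± 0.0302 (adjusted p = 0.00726). Of its partners, RPLP1 had 17.1, 19.2 and 31.4 CPM with the combination and 17.8, 21.7 and 32 CPM with DMSO, a log2 fold of -0.12 ± 0.0416 that did not pass (adjusted p = 0.0547). RPLP2 had 0.794, 1.16 and 7.65 CPM with the combination, against 1.01, 1.84 and 5.95 CPM with DMSO. The level was lower in 8 lines and higher in BT-20, its highest line (log2 fold -0.47 ± 0.152, adjusted p = 0.0404). Without BT-549, HCC1143, HCC1395, HCC1937, MDA-MB-468, SUM-149PT or SUM-159PT the RPLP2 call did not pass (adjusted p 0.0579 to 0.089).

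In the small subunit RPS2, at the messenger entry of the ribosome, had 12.8, 13.8 and 20.7 CPM with the combination, against 15.4, 16.4 and 22.7 CPM with DMSO. RPS2 was lower in every line (-0.22 ± 0.0507, adjusted p = 0.0126). Other small-subunit members that fell include RPS16 at -0.20, RPS21 at -0.19 and, with the smallest fall, RPS13 at -0.09. RPSA, also known as the laminin receptor precursor, had 17.2, 18.9 and 21.6 CPM with the combination and 17.3, 20.9 and 22.7 CPM with DMSO. Its log2 fold of -0.08 ± 0.0279 did not pass (adjusted p = 0.0523). In CPM RPSA was lower in all 9 lines. Fits within a line, which scale each line apart, gave 0.071 in MDA-MB-468 and 0.005 in BT-549.

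RPL38 and RPL39L rose. RPL38, which in mice is needed for the translation of certain Hox messages, had 21.5, 33 and 45.6 CPM with the combination, against 20.2, 31.9 and 41.6 CPM with DMSO. It was higher in all 9 lines, by 0.15 ± 0.0419 (adjusted p = 0.0216). RPL39L, a paralog best known from the testis, had 9, 25.4 and 36.3 CPM with the combination and 6.93, 25.5 and 32 CPM with DMSO. It was higher in 8 of 9 lines, by 0.24 ± 0.0535 (adjusted p = 0.0102). RPL17 had 0.182, 0.451 and 3.06 CPM with the combination, against 0.138, 0.345 and 2.54 CPM with DMSO, a log2 fold of 0.33 ± 0.143 that did not pass (adjusted p = 0.103). RPL26, which can promote p53 translation, had 0.941, 9.06 and 20.3 CPM with the combination and 0.828, 8.02 and 19.7 CPM with DMSO (0.19 ± 0.0772, adjusted p = 0.083). These 4 were the members with a log2 fold above 0. RPL17 and RPL26 were seen through upstream peaks only, and RPL39L had no peak over the TSS.

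Among the 7 paralogs 1 fell and 1 rose. RPL22L1, the partner copy of RPL22, had 23.5, 30.9 and 36.2 CPM with the combination, against 26.8, 31.9 and 42.2 CPM with DMSO. RPL22L1 was lower in 8 of 9 lines, by -0.16 ± 0.0293 (adjusted p = 0.0053). The other 5 did not pass. RPL26L1 had a log2 fold of -0.16 (adjusted p = 0.0867), RPL10L of -0.18 (adjusted p = 0.39), RPL3L of -0.11 (adjusted p = 0.415), RPL7L1 of -0.07 (adjusted p = 0.0534) and RPS27L of -0.07 (adjusted p = 0.277). RPL3L, the form of striated muscle, had 13.3 CPM with the combination and 9.65 CPM with DMSO in HCC1143, its highest line, and medians of 2.47 and 2.76 CPM.

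The fall was deeper beyond the TSS than over it. Peaks over the TSS, downstream of it and upstream of it were summed apart within the 10 kb, a split made after the peaks had been seen. Over the TSS 21 of 58 tested members fell (36.2%) and none rose, against 20.0% of all genes that fell and 10.6% that rose there. The members' median log2 fold over the TSS was -0.081, against -0.03 over all genes. The count over the TSS was 34 with total counts, 12 with abundance-trended offsets, 12 with DESeq2 and 14 without replicate 2. The shares of all genes under these alternatives are not given. Downstream 34 of 56 fell (60.7%) and none rose, against 12.1% and 9.36% of all genes. The median there was -0.35, against -0.017 over all genes. Of the 40 members measured in both places, 37 had a lower log2 fold downstream than over the TSS. In these 40, 19 fell downstream only, 6 fell in both places, 7 over the TSS only and 8 in neither. The difference between the places was not itself tested, and the median downstream peak held 1.09 CPM under DMSO, against 18.2 CPM for a peak over the TSS. Without HCC1937, 20 members fell downstream.

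RPL29 differed between the places. It fell downstream, with 0.517, 1.25 and 5.02 CPM for the combination and 1.58, 2.24 and 7.74 CPM for DMSO (-0.76 ± 0.138, adjusted p = 0.00557). Over its TSS RPL29 had 4.73, 8.39 and 11.1 CPM with the combination, against 4.58, 9.07 and 11.3 CPM with DMSO (-0.10, adjusted p = 0.167). RPL29 was lower with the combination in 9 of 9 lines downstream and in 8 of 9 over the TSS, and the ranges overlapped in both places.

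RPS19, a gene mutated in Diamond-Blackfan anaemia, had 0.687, 1.84 and 2.34 CPM downstream with the combination, against 1.26, 2.46 and 3.41 CPM with DMSO (-0.68 ± 0.139, adjusted p = 0.00828). Over the TSS its fold was -0.08 (adjusted p = 0.0562). RPLP0 had 0.855, 1.95 and 3.36 CPM downstream with the combination, against 1.1, 3.04 and 4.65 CPM with DMSO (-0.60 ± 0.119, adjusted p = 0.00708), and a log2 fold of -0.09 over the TSS (adjusted p = 0.0221). RPL31 had 2.28, 4.45 and 7.3 CPM downstream with the combination and 3.19, 6.76 and 9.48 CPM with DMSO (-0.53 ± 0.0765, adjusted p = 0.00368). Over the RPL31 TSS the fold was -0.08 (adjusted p = 0.223). RPL13A, a part of the interferon-induced GAIT complex, had 1.62, 4.64 and 6.56 CPM downstream with the combination, against 2.57, 5.96 and 8.88 CPM with DMSO (-0.55 ± 0.108, adjusted p = 0.00713). RPL13A, too, did not pass over the TSS (-0.08, adjusted p = 0.0895). In each of these 4 genes the levels of the 9 lines overlapped between combination and DMSO.

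Upstream none of 27 members fell and 2 rose, against 1.93% and 6.43% of all genes. They were RPL38 by 0.35 ± 0.068 (adjusted p = 0.0134) and RPL39L by 0.24 ± 0.0579 (adjusted p = 0.028). RPL38 had 6.95, 15.3 and 27.5 CPM upstream with the combination, against 5.86, 13 and 18.4 CPM with DMSO. Over the TSS the RPL38 log2 fold was 0.05 (adjusted p = 0.403) and downstream -0.11 (adjusted p = 0.208). Of the 3 positions at RPL38, only the upstream peaks passed.

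Single peaks were then tested in a fit over 410603 peaks, of which 2.67% fell and 3.52% rose. Of the 256 member peaks tested, in 75 genes, 53 fell and 1 rose. Over the TSS 4 of 58 fell, among them those of RPS2, RPL12 and RPS21, with a median log2 fold of -0.136. That share of 6.9% is near the 4.6% of all peaks over a TSS, whose median was -0.085. Downstream 46 of 141 fell, in 27 genes, with a median of -0.483. By distance, 4 of 17 fell under 1 kb (23.5%, against 6.84% of all peaks there), 10 of 22 at 1 to 3 kb (45.5%, against 6.43%) and 32 of 102 at 3 to 10 kb (31.4%, against 4.54%). Only 3 of the 141 downstream peaks, of RPL6, RPL10 and RPL22, also lay over a RefSeq start, and none of the 3 passed. Peaks of 1 gene share its locus and are not replicates.

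**Figure D2:**
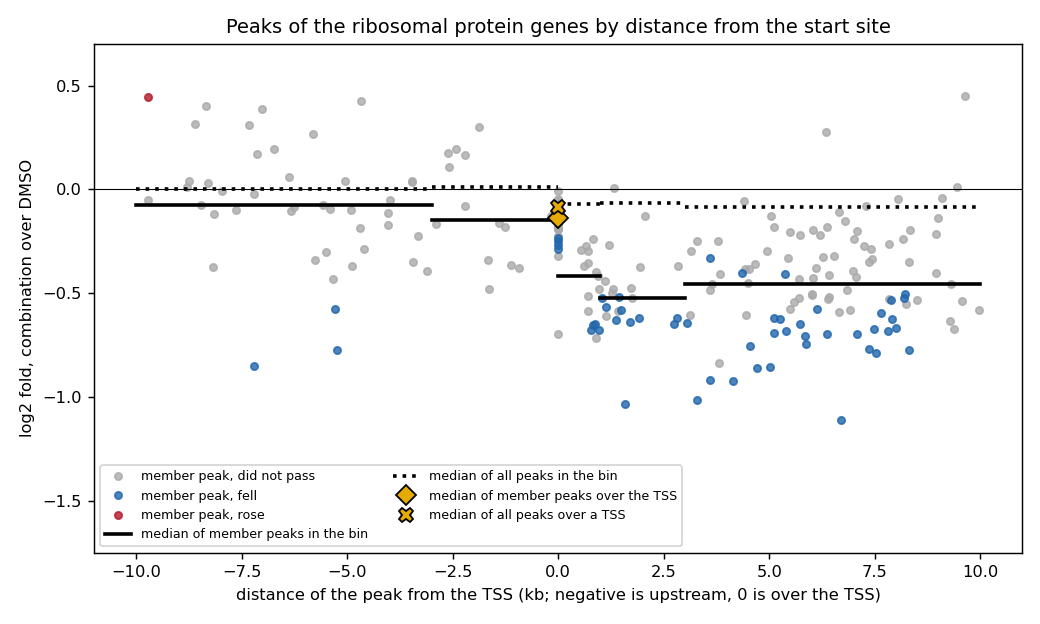
Log2 fold (combination over DMSO, 9 lines) of each tested member peak against its distance from the TSS in kb, with upstream negative. Lines give the median in each bin for member peaks (solid) and all peaks (dotted), and the marks at 0 give both medians over the TSS; member medians downstream lie between -0.418 and -0.523, against -0.064 to -0.086 for all peaks.

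In RPL28, 5 peaks fell, among them the exonic chr19:55391333-55392025 (hg38), 5401 bp from the TSS. That RPL28 peak had 1.31, 2.21 and 2.85 CPM with the combination, against 1.59, 2.88 and 4.8 CPM with DMSO (-0.68 ± 0.124, adjusted p = 0.00951). In RPLP0 the peak chr12:120199908-120200399, 836 bp from the TSS, had 0.855, 1.95 and 3.36 CPM with the combination, against 1.1, 3.04 and 4.65 CPM with DMSO (-0.65 ± 0.137, adjusted p = 0.0157). The peak over the RPS2 TSS, chr16:1964275-1965948, had a smaller fold, -0.27 ± 0.077 (adjusted p = 0.047). All 3 peaks were lower in each of the 9 lines.

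Upstream, 3 of 43 peaks fell and 1 rose at 3 to 10 kb (6.98% fallen, against 1.59% of all peaks there), and none of 14 did under 3 kb (2.01% of all peaks fell). The risen peak was that of RPL38 at chr17:74192804-74193874, 9708 bp before the TSS. It had 0.871, 7.48 and 16.7 CPM with the combination, against 0.707, 5.49 and 10.6 CPM with DMSO (0.45 ± 0.094, adjusted p = 0.0157). It was higher in 9 of 9 lines. An upstream peak of RPS21, chr20:62380631-62381862, had 1.12, 2.83 and 16.7 CPM with the combination and 2.09, 4.02 and 22.2 CPM with DMSO (-0.77 ± 0.109, adjusted p = 0.00429).

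**Figure D3:**
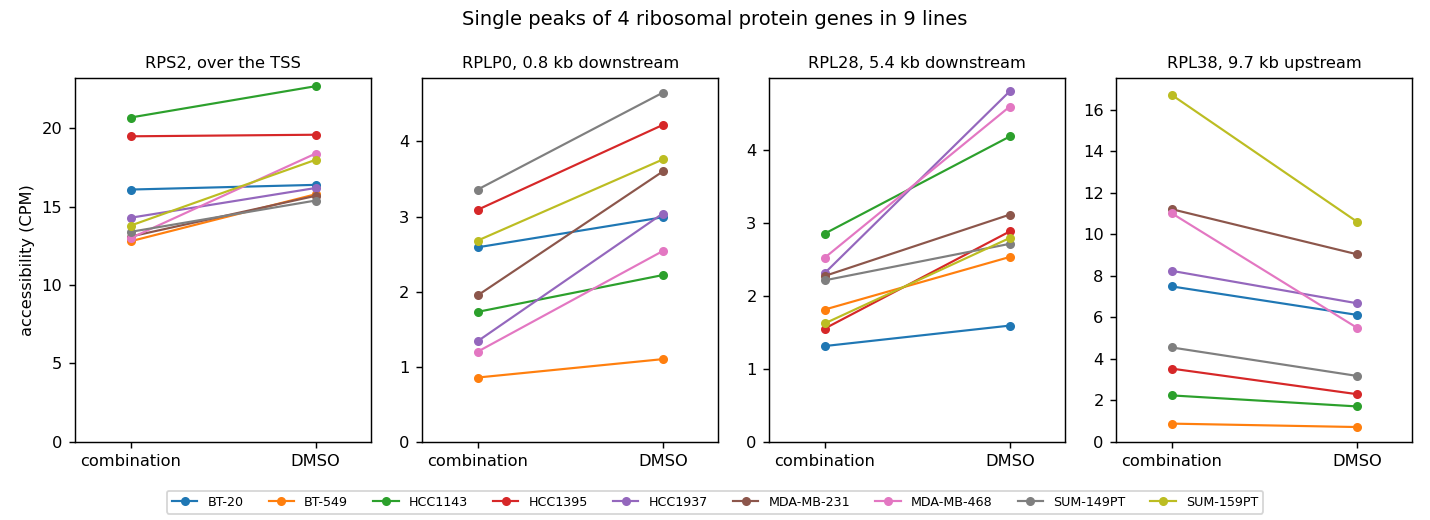
Accessibility in CPM of 4 peaks of RPS2, RPLP0, RPL28 and RPL38 with the combination (left) and DMSO (right); each line joins the 2 values of 1 cell line. The RPS2, RPLP0 and RPL28 peaks were lower and the RPL38 peak higher with the combination in each of the 9 lines, while the lines differ widely in level.

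The median of the members lay below 0 in every line, but its depth differed. The median log2 fold of the members within 10 kb ran from -0.045 in BT-20 to -0.24 in MDA-MB-468. Over the TSS it ran from -0.0052 in HCC1937 to -0.19 in MDA-MB-468. There only 32 of 58 members were lower in HCC1937 and 33 of 58 in BT-20 (median -0.011), so these lines showed almost no shift. Downstream the median ran from -0.19 in BT-549 and SUM-149PT to -0.6 in SUM-159PT. It was below the median over the TSS in each of the 9 lines. In HCC1937 the medians were -0.51 downstream and -0.0052 over the TSS, the widest gap. In BT-549 they were -0.19 and -0.16, the narrowest. The levels behind these medians were scaled over all 26 groups, and fits within a line can differ. The order of the lines is therefore given for this scale only. RPL15 had 20.4 CPM with the combination and 21.9 CPM with DMSO in MDA-MB-468, but a within-line log2 fold of 0.01.

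**Figure D4:**
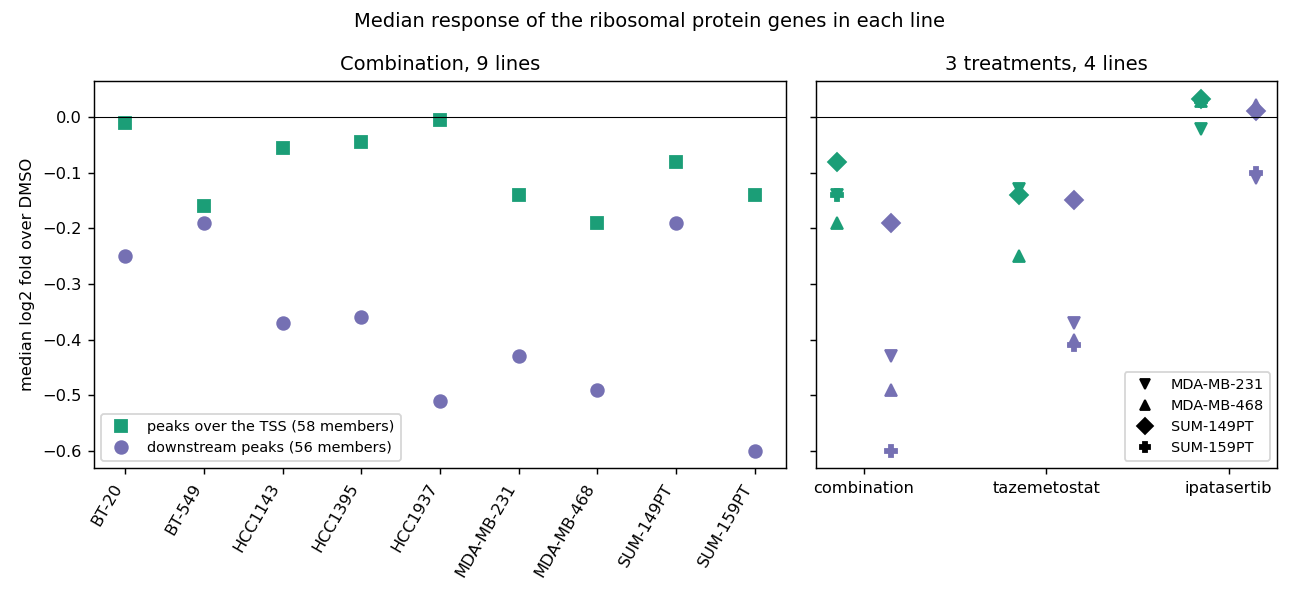
Median log2 fold over DMSO of the members' peaks over the TSS (green, 58 members) and downstream (purple, 56 members), for the combination in 9 lines (left) and for the combination, tazemetostat and ipatasertib in 4 lines (right, a marker for each line). Downstream medians lie below those over the TSS for the combination in every line, and the ipatasertib medians lie between -0.11 and 0.033.

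Within single lines, tests over the 3 replicates cover counting error only. With the combination 38 of 76 members fell in BT-549 (all genes 19.2%), 29 of 74 in MDA-MB-231 (9.98%), 29 of 74 in MDA-MB-468 (21.5%) and 27 of 73 in SUM-159PT (21.0%). In SUM-149PT 18 of 75 fell (11.2%), in HCC1395 16 of 76 (13.0%) and in HCC1937 16 of 75 (13.0%). In HCC1143 11 of 74 fell (14.6%) and in BT-20 8 of 74 (9.64%), shares near those of all genes. Risen members numbered 1 to 4 in a line, against 11.7% (BT-20) to 28.0% (SUM-159PT) of all genes. With tazemetostat 25 of 74 fell in MDA-MB-231 (all genes 10.3%), 39 of 74 in MDA-MB-468 (26.4%), 23 of 75 in SUM-149PT (10.5%) and 18 of 73 in SUM-159PT (21.5%), the lowest share relative to all genes.

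The gene that moved most differed between lines. RPL36A had the deepest fold in BT-20 (-1.18, adjusted p = 0.00742), BT-549 (-0.89, adjusted p = 1.41e-05) and HCC1937 (-0.98, adjusted p = 0.000272). RPL34 had it in MDA-MB-231 (-0.62, adjusted p = 0.00338) and SUM-159PT (-1.01, adjusted p = 0.0015). RPLP2 had it in MDA-MB-468 (-1.04, adjusted p = 0.000202) and SUM-149PT (-0.64, adjusted p = 0.012), and RPL28 in HCC1395 (-0.89, adjusted p = 1.09e-07). In HCC1143 it was RPL23, at -0.66, which did not pass (adjusted p = 0.192). The highest fold was that of RPLP2 in BT-20 (0.37, adjusted p = 0.00989), RPL17 in BT-549 (0.96, adjusted p = 0.00216) and RPL3L in HCC1143 (0.47, adjusted p = 5.89e-06). It was that of RPL39L in HCC1395 (0.35, adjusted p = 4.43e-05) and MDA-MB-231 (0.42, adjusted p = 1.23e-05), and of RPL26 in HCC1937 (0.32, adjusted p = 0.0031). In MDA-MB-468 it was that of RPL10L (0.89, adjusted p = 0.0197), in SUM-149PT of RPL4 (0.97, adjusted p = 2.87e-06) and in SUM-159PT of RPL38 (0.4, adjusted p = 9.36e-14).

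An F test of line by treatment found a response to the combination that differed between lines in 43 of the 76 members, against 73.4% of all genes. The smallest adjusted p was that of RPS21 (1.37e-16). RPS21 had 23.3 CPM with the combination and 36.2 CPM with DMSO in SUM-159PT, but 52.3 and 50.2 CPM in BT-20. The within-line log2 folds were -0.57 ± 0.0466 in SUM-159PT and 0.06 ± 0.041 in BT-20. RPL13 (adjusted p = 7.46e-11) had within-line folds from -0.71 in HCC1395 to -0.07 in BT-20. RPL38 (adjusted p = 3.12e-10) had 0.50 in MDA-MB-468 and 0.40 in SUM-159PT, against 0.04 in HCC1395 and HCC1937. RPL28 (adjusted p = 1.56e-08) ran from -0.98 in SUM-159PT to -0.05 in SUM-149PT.

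In the 4 lines with all treatments, the members fell with tazemetostat and showed no call with ipatasertib. The 3 comparisons share their DMSO samples. With tazemetostat 44 of 76 fell and 1 rose, against 18.0% and 9.81% of 23905 genes, with a median log2 fold of -0.15 against -0.021 over all genes. With ipatasertib none fell or rose, as in all genes, and the median was -2.8e-05. At an unadjusted p under 0.05, 2 of the members passed with ipatasertib, and 490 of all genes. With the combination in these 4 lines 34 fell and 1 rose, against 12.4% and 7.36%, with a median of -0.15. The combination minus ipatasertib gave 31 fallen and 1 risen, against 15.7% and 8.76%, with a median of -0.14. The combination minus tazemetostat gave no call (2 members at an unadjusted p under 0.05), nor did the test of a non-additive response (0 members). Their medians were 0.011 and 0.0057. DESeq2 gave no call either in these last 2 comparisons or for ipatasertib.

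The count for tazemetostat depended on the lines and on the fit. It was 22 without MDA-MB-231, 14 without MDA-MB-468, 20 without SUM-149PT and 11 without SUM-159PT, and none passed where the tazemetostat and DMSO samples were fitted alone. The combination in 4 lines gave 15, 14, 15 and 3 fallen with the same lines left out in turn, and the combination minus ipatasertib 17, 11, 15 and 2. Both gave none where only their 2 groups were fitted.

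By role, tazemetostat lowered 26 of 49 large-subunit and 18 of 27 small-subunit members, and 1 large-subunit member rose. Values are given for MDA-MB-231, MDA-MB-468, SUM-149PT and SUM-159PT in this order. RPLP2 had 1.21, 1.14, 1.87 and 0.777 CPM with tazemetostat, against 1.66, 1.77, 2.32 and 1.96 CPM with DMSO (log2 fold -0.63 ± 0.199, adjusted p = 0.0362). RPL36A had 0.983, 0.787, 1.35 and 0.683 CPM with tazemetostat, against 1.47, 1.46, 1.73 and 1.02 CPM with DMSO (-0.58 ± 0.176, adjusted p = 0.0321). Both genes were lower in each line, and the ranges overlapped, with SUM-149PT the highest line under both treatments. RPL28 had 7.04, 9.97, 9.2 and 4.88 CPM with tazemetostat, against 11.6, 15.7, 9.42 and 6.9 CPM with DMSO (-0.46 ± 0.142, adjusted p = 0.0323). SUM-149PT showed almost no difference at RPL28. RPL23 had 1.01, 0.215, 0.3 and 0.259 CPM with tazemetostat and 1.28, 0.369, 0.332 and 0.426 CPM with DMSO, and did not pass (-0.46 ± 0.263, adjusted p = 0.197). The calls of RPLP2 and RPL36A did not pass with any of the 4 lines left out (adjusted p 0.0542 to 0.183), nor did that of RPL28 without MDA-MB-231, MDA-MB-468 or SUM-159PT (adjusted p 0.0847 to 0.142).

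RPL38 rose with tazemetostat. It had 41.1, 41.2, 24.3 and 41.1 CPM with tazemetostat, against 38.8, 34.8, 24.7 and 33 CPM with DMSO (0.18 ± 0.0561, adjusted p = 0.0358). It was higher in 3 of 4 lines, the exception being SUM-149PT. Without MDA-MB-231, MDA-MB-468 or SUM-159PT the RPL38 call did not pass (adjusted p 0.0737 to 0.21), and within 1 kb of the TSS its fold was -0.030 (adjusted p = 0.767). RPL10L (0.22, adjusted p = 0.61), RPL17 (0.26, adjusted p = 0.329) and RPL39L (0.15, adjusted p = 0.352) did not pass.

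With ipatasertib, RPL4, which was seen through downstream peaks only, had the highest fold. It had 3.13, 0.925, 3.57 and 0.477 CPM with ipatasertib, against 2.24, 0.645, 1.95 and 0.402 CPM with DMSO (0.56, adjusted p = 1), higher in each of the 4 lines. RPL39L followed with 11.9, 10.9, 27.9 and 26.4 CPM with ipatasertib and 11.1, 6.93, 27.2 and 25.5 CPM with DMSO (0.20, adjusted p = 1). Within lines, on counting error only, RPL4 rose in SUM-149PT (0.85, adjusted p = 0.000789) and RPL39L in MDA-MB-468 (0.62, adjusted p = 1.59e-08). In all, 2 members rose in MDA-MB-468, 3 in SUM-149PT and none in MDA-MB-231 or SUM-159PT, and 1 fell, in MDA-MB-231. Of all genes 2.95% rose in MDA-MB-468 and 2.1% in SUM-149PT, and 0.148% fell in MDA-MB-231. Across lines RPL26 had a log2 fold of 0.22 and RPL35 of 0.07. The lowest folds with ipatasertib were those of RPL23 (-0.26), RPL36A (-0.23), RPL10L (-0.13) and RPL36 (-0.12). None of these passed.

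Over the TSS tazemetostat lowered 41 of 58 members (70.7%), against 29.8% of all genes, with a median of -0.14 against -0.074. Downstream it lowered 9 of 56 (16.1%), against 2.03% of all genes that fell and 5.33% that rose there, with a median of -0.33 against 0.033. Without MDA-MB-231, MDA-MB-468, SUM-149PT or SUM-159PT the count over the TSS was 24, 16, 23 and 21 in turn. Downstream it was 0, 1 and 0 without MDA-MB-231, MDA-MB-468 and SUM-159PT. With factors computed from the peaks over the TSS alone 15 fell there, and with abundance-trended offsets 6. RPS19 fell in both places, by -0.16 over the TSS (adjusted p = 0.00502) and by -0.65 ± 0.159 downstream (adjusted p = 0.0309). Its downstream peaks had 1.99, 2.2, 2.66 and 0.777 CPM with tazemetostat, 2.96, 3.68, 3.33 and 1.39 CPM with ipatasertib and 3.41, 3.28, 3.34 and 1.75 CPM with DMSO. Tazemetostat was the lower of the 2 agents in each line. In the same 4 lines the combination lowered 20 of 58 members over the TSS (15.9% of all genes) and 19 of 56 downstream (4.83%), with medians of -0.12 and -0.4. Ipatasertib called no member in either place, with medians of 0.0081 over the TSS and -0.052 downstream.

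Members with and without the TOP-like start had similar median folds; the difference was not tested. Of the 41 with it 23 fell with the combination, with a median log2 fold of -0.13, and of the 20 without it 8 fell, with a median of -0.09. With tazemetostat the medians were -0.156 and -0.159. The 15 members without a promoter entry had medians of -0.11 and -0.14.

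Genes around the ribosome were counted in the same way, from lists compiled with results of these data known. In the combination, 4 of 4 ribosomal protein genes outside the symbol rule fell, among them FAU (-0.20, adjusted p = 0.00614), RACK1 (-0.13, adjusted p = 0.00908) and RPL36AL (-0.10, adjusted p = 0.0129). Of 18 other TOP genes, which encode translation factors and their companions, 14 fell and 1 rose. EEF2, the translocation factor, fell by 0.26 on the log2 scale (adjusted p = 0.00331), and EIF3E rose by 0.51 (adjusted p = 0.0221). Of 49 ribosome biogenesis factors 27 fell and none rose, with nucleostemin GNL3 at -0.86 (adjusted p = 0.0041). Of 26 genes of RNA polymerase I and III 12 fell and none rose, with GTF3C2, a TFIIIC subunit, at -0.93 (adjusted p = 0.00345). Of 22 regulators from AKT, mTORC1 and MYC 10 fell and 2 rose, with RPTOR at -0.26 (adjusted p = 0.00466) and MYCN at 0.53 (adjusted p = 0.00575).

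Complexes outside cytoplasmic translation were counted beside them. Of 64 mitochondrial ribosomal protein genes 24 fell and none rose, and of 30 proteasome subunit genes 17 fell and 1 rose. Downstream of the TSS the median was -0.26 in the mitochondrial ribosomal and -0.34 in the proteasome genes, against -0.35 in the cytoplasmic ribosomal protein genes. Over the TSS 27 of 53 mitochondrial ribosomal and 16 of 27 proteasome genes fell, against 21 of 58 members and 20.0% of all genes. Among single peaks at 1 to 3 kb downstream, 3 of 18 mitochondrial ribosomal and 3 of 13 proteasome peaks fell. There 10 of 22 member peaks and 6.43% of all peaks fell. At 3 to 10 kb the counts were 5 of 54, 1 of 22 and, for the members, 32 of 102, against 4.54% of all peaks. No test of the difference between lists was made, and nothing is called particular to the ribosomal protein genes.

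**Figure D5:**
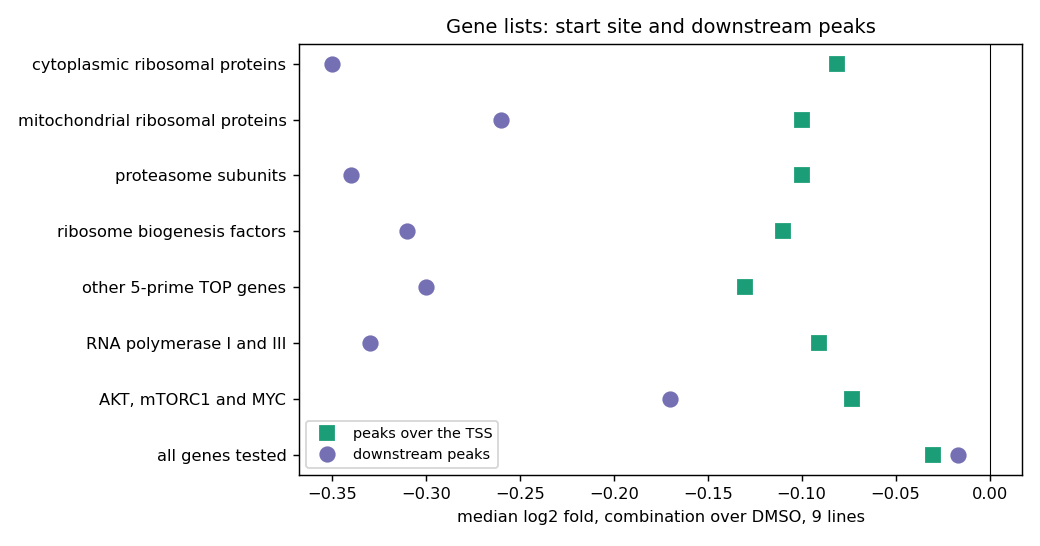
Median log2 fold (combination over DMSO, 9 lines) of peaks over the TSS (squares) and downstream peaks (circles) for 7 gene lists and all genes tested. In all 7 lists the downstream median lies below that over the TSS, and in all genes tested it does not.

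The share of all counts that lay in member peaks was 0.109 to 0.151% with the combination, 0.11 to 0.14% with tazemetostat, 0.134 to 0.16% with ipatasertib and 0.134 to 0.171% with DMSO. Total counts in place of TMM put the median of all genes in the tazemetostat comparison at -0.12 and that of the members at -0.25. Other lists had medians like the members' with tazemetostat under TMM. They were -0.2 in the other TOP genes, -0.17 in the biogenesis factors and -0.16 in the RNA polymerase I and III genes. The mitochondrial ribosomal genes had -0.16 and the proteasome genes -0.14, against -0.15 in the members. Fewer open cells and less open chromatin in each cell cannot be told apart in bulk samples.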

How the data were processed

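ATAC-seq counts were analysed for 78 libraries of 9 lines; the 6 samples of HCC1806 were not analysed here. The authors deposited a table of raw counts per peak for 861439 peaks with a symbol and a distance to the TSS for each peak. Per the submitters' processing notes, MACS2, featureCounts and hg38 were used; their versions were not given there. Peaks within 10 kb of the TSS were summed per gene, and the 3 replicates of a line and treatment were summed to 1 sample, because their labels do not say whether they came from separate cultures and they differed by about sampling noise (median variance ratio 0.772).

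Sums were tested in edgeR 4.0.16 (TMM, quasi-likelihood F test, minimum count 10, Benjamini-Hochberg adjusted p below 0.05) with the line as a block, over 9 lines for the combination and in 1 fit of 4 treatments over 4 lines for the single agents. Within-line fits used single libraries and cover counting error only. The split by position and the fit of single peaks were added after the data had been seen. The scripts were tested on simulated data. Alternatives covered scaling, filter, window, assignment, DESeq2 1.42.0, leaving out lines or replicates, and a replicate block.

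The members and gene lists were chosen with earlier results of these data known. Named members are the 10 largest falls and up to 5 rises with the combination (4 members had a fold above 0), the 4 and 4 largest for each single agent, the paralogs, RPLP0, RPLP1, RPLP2 and RPSA, the 4 highest and lowest per kb, and the extremes of each line. Other list genes are up to 4 that passed, by size. Ends of ranges, genes named by position or by the line-by-treatment test, single peaks and printed sequences were chosen after their values were seen. Same-numbered replicates did not deviate together (51 pairs, correlation -0.102 to 0.115), so the numbers were not taken as pairs. Some members and markers that the rule names are counted but not reported here by name.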

Additional observations from a re-analysis of the deposited data

Results flagged for a closer look

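Among 25 sets of 4 to 9 line values screened for a value far from the others, 3 stood out, and chance gives about 1 in 20. Over the TSS, the median log2 fold of the members with tazemetostat was -0.25 in MDA-MB-468, apart from -0.13 to -0.14 in the other 3 lines. These medians use levels scaled over all 26 groups. RPL15, measured only over the TSS, had 18.6 CPM with tazemetostat and 21.9 CPM with DMSO in MDA-MB-468. Its within-line log2 fold there was -0.104. The flag therefore holds for the scale over all 26 groups only. Whether MDA-MB-468 stands apart on the within-line scale was not tested. With ipatasertib the median over the TSS was -0.021 in MDA-MB-231, while the other 3 lines had 0.028 to 0.033. Downstream, the median with tazemetostat was -0.15 in SUM-149PT, apart from -0.37 to -0.41 in the other 3.

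By the F test of line by treatment, 43 of the 76 members had a response to the combination that differed between lines, with counting error as the only error term, against 73.4% of all genes.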

How the results depend on the processing

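The direction of the members' median held in every alternative for the combination and for tazemetostat, while the counts of calls moved. The counts moved with the window, the scaling and the test, and in 4 lines also with each line left out. Where a value moved, the cause was not tested. The shares of all genes under the alternatives are not given below, so a moved count is not a result about the members alone. Total counts also lowered the median of all genes in the tazemetostat comparison.

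For the combination over 9 lines (40 fallen, 2 risen), peaks within 1 kb gave 19 fallen and 0 risen, peaks within 50 kb 1 risen, and any peak over the RefSeq TSS 18 and 0. For tazemetostat (44 and 1), total-count scaling gave 0 risen and a median of -0.25, abundance-trended offsets 27 fallen, peaks within 1 kb 24 and 0, peaks within 50 kb 0 risen, and the RefSeq TSS 16 and 0 with a median of -0.086. For the combination in 4 lines (34 and 1), total counts gave 59 fallen and a median of -0.23, peaks within 1 kb 15 and 0 with a median of -0.081, and the RefSeq TSS 12 and 0 with a median of -0.074. For the combination minus ipatasertib (31 and 1), total counts gave 59 fallen, trended offsets 20, peaks within 1 kb 17 and 0, and the RefSeq TSS 10 and 0. With only the 2 groups compared in the fit, each of these 3 comparisons in 4 lines gave 0 fallen and 0 risen.

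Over the TSS the combination count (21) was 34 with total counts, 12 with trended offsets and 12 with DESeq2. The tazemetostat count there (41) was 15 with factors of that position, 6 with trended offsets, 16 with DESeq2 and 13 with only 2 groups. Downstream, the tazemetostat count (9) was 17 with factors of that position, 23 with total counts, 20 with trended offsets, 26 with DESeq2 and 0 with only 2 groups. Summed over lines, within-line calls for the combination (192 fallen, 20 risen) were 101 and 12 with DESeq2 and 67 and 1 within 1 kb. Those for tazemetostat (105 and 5) were 52 fallen with DESeq2 and 31 and 0 within 1 kb. Those for ipatasertib (1 and 5) were 0 and 2 with DESeq2, 3 fallen at a minimum count of 30, and 0 risen within 1 kb. The replicate block gave 191 fallen and 21 risen for the combination within lines. At RPL36A the RefSeq TSS reversed the fold with the combination (0.0020) and tazemetostat (0.0051). At RPL38 the tazemetostat fold reversed within 1 kb (-0.030) and over the RefSeq TSS (-0.012).

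With lines or replicates left out, the combination gave 27 to 42 fallen and 2 risen, with medians of -0.12 to -0.10, 14 to 23 over the TSS and 20 (without HCC1937) to 30 downstream, or 33 without HCC1395 DMSO replicate 3. Tazemetostat gave 11 to 48 fallen and 0 to 1 risen, with medians of -0.17 to -0.13, 16 to 42 over the TSS and 0 to 6 downstream, with 4 without replicate 1. Its 1 riser was lost without MDA-MB-231, MDA-MB-468, SUM-159PT or replicate 1. The combination in 4 lines gave 3 to 39 fallen and 0 to 1 risen, with medians of -0.15 to -0.12; 15, 14, 15 and 3 fell without MDA-MB-231, MDA-MB-468, SUM-149PT and SUM-159PT. The combination minus ipatasertib gave 2 to 31 fallen and 0 to 1 risen, with 17, 11, 15 and 2 in the same order. In both, the riser was lost without MDA-MB-468 or SUM-159PT. Ipatasertib gave 0 calls, with medians of -0.0098 to 0.0095. Within lines the sums were 120 (without replicate 2) to 145 fallen and 15 to 16 risen for the combination, 69 (without replicate 3) to 75 and 4 to 5 for tazemetostat, and 0 to 1 and 1 to 3 for ipatasertib.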
